A study of Mus musculus with 12 samples.

Results

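Collagens are the main structural proteins of the extracellular matrix, and lysyl oxidases are the copper-dependent enzymes that cross-link them. The set described here held every probe outside the controls whose gene name was that of a collagen chain, or was Lox, Loxl2, Loxl3 or Loxl4. The rule used names only and no measured value. It found 45 genes, 41 collagens and 4 lysyl oxidases, with 71 probes, among 36095 named features with 55681 probes. The arrays measured RNA from whole livers of BALB/c mice. The 4 groups were interleukin-18 knockout mice at 6 weeks (KO), wild type mice at 6 weeks (WT), knockout mice at 12 weeks and wild type mice at 12 weeks, with 3 arrays in each. None of the mice had been treated, and the labels call the arrays of a group biological replicates. Interleukin-18, an inflammatory cytokine, is released in active form after inflammasome caspases cut its precursor, and the comparisons ask how its loss and age bear on liver RNA.

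In liver, fibrillar collagens such as types I, III and V are made mainly by hepatic stellate cells and portal fibroblasts and form the fibres that accumulate as scar in fibrosis. Type IV chains form the sheet-like network of basement membranes around vessels and bile ducts. Collagen chains are hydroxylated and folded into a triple helix in the endoplasmic reticulum, trimmed by proteinases outside the cell, and then joined covalently after lysyl oxidases convert lysine side chains to aldehydes. Healthy liver holds little fibrillar collagen compared with scarred liver.

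The processed signal of each array was taken on a log2 scale relative to its 75th percentile, called the level below. A gene entered the test if one of its probes was flagged by the scanner software as well above background throughout any group of 3 arrays, which held for 22128 genes. The 75th percentile ran from 349 to 420 scanner units, and 50.1% to 57.7% of spots per array carried that flag. P-values were adjusted over all 22128 genes, and a gene passed, or was called, at an adjusted p under 0.05. Il18, the targeted gene, had levels of -0.02, -0.04 and -0.37 on the 6-week KO arrays against 2.44, 2.41 and 2.35 on the 6-week WT arrays. At 12 weeks its levels were -0.03, -0.12 and 0.04 in KO livers against 2.25, 2.15 and 2.49 in WT livers, so that every KO array lay below every WT array at both ages. The probe was still well above background on all 6 KO arrays, and the labels do not say which stretch of the gene was deleted. The arrays lay on 2 slides, each scanned apart. Slide 1 held all 6-week WT arrays and replicate 1 of the 12-week WT, and slide 2 held the rest, so at 6 weeks slide and genotype cannot be told apart by these groups alone. A model that includes slide as a block depends on that 1 shared array. All 10 hepatocyte markers were well above background on every array. Because the tissue was whole liver, fewer cells of a type and less RNA per cell cannot be told apart.

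Of the 45 genes, 25 were tested, through 33 probes: 22 collagens and 3 lysyl oxidases. At 6 weeks, 6 of the 25 passed the threshold between KO and WT livers (24%, against 21.1% of all genes tested), 3 higher and 3 lower in KO (11.7% and 9.35% of all genes). At 12 weeks, 1 passed (4%, against 8.21% of all genes), and it was lower in KO. All genes called at 12 weeks made up 5.65% higher and 2.56% lower. Averaged over both ages, 4 passed (16%, against 20.6%), 2 higher and 2 lower in KO (12.7% and 7.86% of all genes). From 6 to 12 weeks, 4 of the 25 fell and 0 rose in KO livers (16%, against 6.91% of all genes, of which 2.93% fell and 3.98% rose). In WT livers 2 passed (8%, against 9.03%), 1 higher and 1 lower at 12 weeks (4.61% and 4.43% of all genes). The genotype difference itself differed between the ages in 2 members (8%, against 10.3%), both with a negative sign (4.76% of all genes, with 5.58% positive). Except for the falls with age in KO livers, the share of members called was thus close to or below that of all genes.

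Among the lysyl oxidases, Loxl4 was about 11.2-fold higher in 6-week KO livers than in WT livers, where its probe was well above background on only 1 of 3 arrays, and this was the largest difference between genotypes of any tested member. Loxl4 encodes a secreted lysyl oxidase-like enzyme with scavenger receptor domains, which acts on collagen. By 12 weeks its level in KO livers had fallen by a similar amount, and the genotype difference at that age did not pass the test. The stretch of 250 bases before its RefSeq transcription start, at chr19:42612807-42613056 on the minus strand of GRCm38, is shown because Loxl4 had the largest difference, and capitals mark each match of GGGCGG (the GC box bound by SP1 family factors).

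Loxl4: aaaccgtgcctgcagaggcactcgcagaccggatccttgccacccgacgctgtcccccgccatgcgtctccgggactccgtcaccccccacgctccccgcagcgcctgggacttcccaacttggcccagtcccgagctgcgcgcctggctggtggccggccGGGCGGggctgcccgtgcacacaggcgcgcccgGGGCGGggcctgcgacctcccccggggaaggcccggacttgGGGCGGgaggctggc

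This window was 76.0% G and C. On either strand it held 3 matches of GGGCGG or its reverse complement CCGCCC, 0 of CCAAT or ATTGG and 0 of TATAAA or its reverse complement. Among the 32851 RefSeq windows of the same length, 32.7% held a GGGCGG match, 33.8% a CCAAT match and 12.4% a TATAAA match. A match describes letters only and is not evidence of a bound factor.

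The Loxl4 probe A_55_P2044143, at chromosome 19 from 42667320 to 42667379 on mm9, had levels of 0.23, -1.04 and -1.14 on the 6-week KO arrays, against -4.38, -3.73 and -4.27 on the 6-week WT arrays. At 12 weeks its levels were -3.59, -4.54 and -4.24 in KO livers, against -3.28, -3.22 and -2.99 in WT livers. All 3 of the 6-week KO arrays stood above the other 9 arrays. The probe was well above background on only 1 of the 3 6-week WT arrays and 2 of the 3 12-week KO arrays. The log2 difference of KO minus WT was 3.48 ± 0.36 (SE, limma adjusted p = 0.000252) at 6 weeks and -0.96 ± 0.36 (adjusted p = 0.127) at 12 weeks. Groups did not overlap at either age. The fall in KO livers from 6 to 12 weeks was -3.47 ± 0.36 (adjusted p = 0.000763), and the genotype difference at 12 weeks minus that at 6 weeks was -4.44 ± 0.51 (adjusted p = 0.000926).

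The other Loxl4 probe, A_66_P107231, at chromosome 19 from 42668733 to 42668792 on mm9, had levels of 0.73, -0.52 and -0.90 on the 6-week KO arrays, against -6.47, -4.15 and -5.37 on the 6-week WT arrays. In the older mice this probe read -3.63, -3.76 and -3.90 in KO livers, against -3.22, -3.19 and -3.28 in WT livers. Again the 6-week KO arrays stood apart from all others. This probe was well above background on 0 of the 6-week WT arrays, so its signal was at least 15.7-fold higher in 6-week KO livers (measured means of -0.23 in KO and -5.33 in WT, adjusted p = 0.000302 with every probe tested separately), a bound set by the lowest signal of any probe well above background. In that fit its difference with age was -3.54 ± 0.53 in KO livers (adjusted p = 0.00501). It was also at least 1.95-fold higher in WT livers at 12 than at 6 weeks (adjusted p = 0.0368), whereas the first probe gave 0.97 ± 0.36 (adjusted p = 0.123). With the slide as a fixed block as well, neither probe passed with age in WT livers. The measured differences were then 2.11 (adjusted p = 0.191) for this probe and 0.85 (adjusted p = 0.456) for the first, with every probe tested separately. Fitted with the slide as a fixed block, the genotype difference at 6 weeks was 3.30 (adjusted p = 0.0403) for the first probe. The average over both ages, 1.26 ± 0.25 (adjusted p = 0.00932), was 1.14 (adjusted p = 0.237) with that block.

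**Figure D1:**
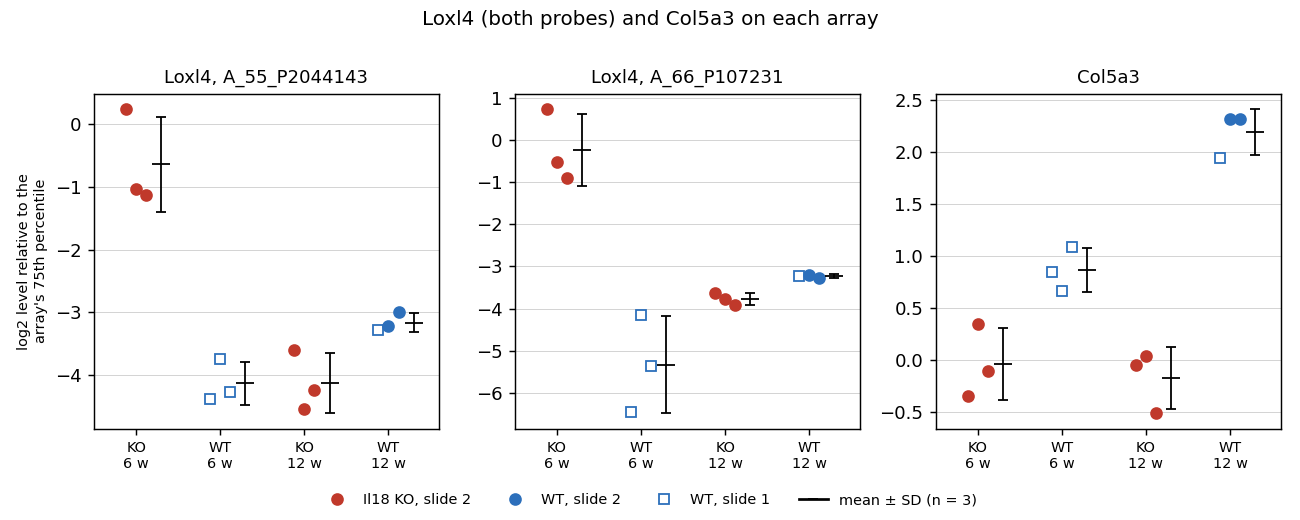
Log2 level relative to each array's 75th percentile of both Loxl4 probes and of Col5a3 on the 12 arrays. Points are arrays, filled for slide 2 and open for slide 1, and bars are the mean ± SD of 3 arrays. Loxl4 is high on the 3 6-week KO arrays alone, at -1.14 to 0.23 for the first probe, and Col5a3 is high on the 3 12-week WT arrays, at 1.93 to 2.32.

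Loxl2, a related enzyme that cross-links collagen IV and fibrillar collagens and is found raised in fibrotic liver, was 1.82-fold lower in KO livers at 12 weeks than at 6 weeks. The probe used for it, the brightest of 3, had levels of -0.50, -1.22 and -1.09 on the 12-week KO arrays, against -0.19, 0.09 and -0.10 on the 6-week KO arrays. The groups did not overlap, with replicate 1 of the 12-week KO the nearest to the younger livers. In WT livers it read -0.81, -0.58 and -0.61 at 12 weeks, against -0.59, -0.54 and -0.06 at 6 weeks, and these groups overlapped. The difference with age was -0.87 ± 0.20 (SE, adjusted p = 0.028) in KO and -0.27 ± 0.20 (adjusted p = 0.424) in WT livers. The 3 probes of Loxl2 disagreed: in KO livers the other two gave -0.57 ± 0.18 (adjusted p = 0.0969) and 0.08 ± 0.18 (adjusted p = 0.867), and the mean over the probes gave -0.45 (adjusted p = 0.0966). The call was also lost without any 1 of 5 KO arrays, all 3 of 6 weeks and replicates 2 and 3 of 12 weeks, with adjusted p-values from 0.0565 to 0.106. Between genotypes Loxl2 differed by 0.33 ± 0.20 (adjusted p = 0.243) at 6 weeks and by -0.27 ± 0.20 (adjusted p = 0.429) at 12 weeks.

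Loxl3, which also oxidises collagen lysines, had KO minus WT differences of -0.24 ± 0.11 (adjusted p = 0.126) at 6 weeks and -0.14 ± 0.11 (adjusted p = 0.463) at 12 weeks. Lox, the founding member of the family and a gene induced in stellate cells of injured liver, was not well above background with either of its 2 probes on any array, and was not tested. The only lysyl oxidase to pass between the genotypes was therefore Loxl4, at 6 weeks and in the average.

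Among the 11 fibrillar collagen genes, 7 were tested. Col5a3 was lower in KO livers at both ages and was the only member called between genotypes at 12 weeks, 5.16-fold lower in KO. It encodes the alpha 3 chain of type V collagen, a quantitatively minor fibril component that joins type I fibrils. Its window of 250 bases before the RefSeq start, at chr9:20815068-20815317 on the minus strand of GRCm38, is shown because Col5a3 was the only member to pass between genotypes at both ages, with GGGCGG or CCGCCC and CCAAT matches in capitals.

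Col5a3: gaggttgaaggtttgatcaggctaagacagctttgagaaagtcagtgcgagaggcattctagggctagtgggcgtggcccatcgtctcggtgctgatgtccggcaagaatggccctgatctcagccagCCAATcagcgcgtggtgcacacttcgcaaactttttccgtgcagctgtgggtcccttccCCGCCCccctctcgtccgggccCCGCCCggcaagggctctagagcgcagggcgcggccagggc

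The Col5a3 window was 62.8% G and C, with 2 matches of the GC box, 1 of CCAAT and 0 of TATAAA. Of the 45 member genes, 34 had such a RefSeq window.

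The single probe for Col5a3 (mm9, chromosome 9, 20574592 to 20574651, minus strand) had levels of -0.35, 0.34 and -0.11 on the 6-week KO arrays, against 0.84, 0.66 and 1.09 on the 6-week WT arrays. At 12 weeks they were -0.05, 0.03 and -0.52 in KO livers, against 1.93, 2.32 and 2.31 in WT livers. Every KO array lay below every WT array, and the level rose with age in WT livers: 12 minus 6 weeks was 1.33 ± 0.21 (SE, adjusted p = 0.00518) in WT and -0.14 ± 0.21 (adjusted p = 0.779) in KO livers. KO minus WT was -0.90 ± 0.21 (adjusted p = 0.0145) at 6 weeks and -2.37 ± 0.21 (adjusted p = 0.000408) at 12 weeks, and the change between the ages in that difference was -1.46 ± 0.29 (adjusted p = 0.0119). Within slide 2 the 12-week difference was -2.49 (adjusted p = 0.00734). Under a fixed slide block the 6-week difference was -1.28 (adjusted p = 0.1), the rise in WT livers 1.07 (adjusted p = 0.0781) and the change in the genotype difference -1.21 (adjusted p = 0.0702). The 6-week call was also lost without replicate 3 of the 6-week WT (adjusted p = 0.0523) or replicate 1 of the 6-week KO (adjusted p = 0.0503).

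Col5a3 lies on the same chromosome as Il18, and the 2 probes are 29.8 Mb apart on mm9. The part that linked chromosomal sequence around the targeted locus may have in the Col5a3 values was not tested. The other tested member on chromosome 9, Col7a1, the anchoring fibril collagen of epithelia, lies 58.5 Mb from the Il18 probe and had differences of 0.12 ± 0.16 (adjusted p = 0.613) at 6 weeks and -0.35 ± 0.16 (adjusted p = 0.221) at 12 weeks.

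Col27a1, a fibrillar chain best known from cartilage, was 1.86-fold higher in 6-week KO livers. Its levels were -0.71, -1.11 and -0.95 on the 6-week KO arrays, against -1.22, -2.34 and -1.87 on the 6-week WT arrays. At 12 weeks they were -1.32, -0.96 and -0.97 in KO livers, against -0.88, -1.55 and -1.20 in WT livers. The 6-week groups did not overlap, although replicate 1 of the WT lay only just below the lowest KO array, and the 12-week groups overlapped. The difference was 0.89 ± 0.26 (SE, adjusted p = 0.0381) at 6 weeks and 0.13 ± 0.26 (adjusted p = 0.808) at 12 weeks. The 6-week call was lost with the slide as a fixed block (1.38, adjusted p = 0.154) and without any 1 of 7 arrays: replicates 2 and 3 of the 6-week WT, all 3 of the 6-week KO, and replicates 2 and 3 of the 12-week KO.

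The chains of the abundant interstitial fibrils, Col1a1, Col1a2 and Col3a1, did not pass in any comparison. Col1a2, which pairs with Col1a1 in type I collagen, had levels of 2.64, 2.96 and 3.11 in 6-week KO livers, against 2.90, 2.93 and 3.27 in 6-week WT livers. In the older mice they were 2.75, 1.79 and 2.03 in KO livers, against 2.18, 2.58 and 2.69 in WT livers. Genotypes overlapped at both ages, with differences of -0.13 (95% interval -0.66 to 0.40) at 6 weeks and -0.29 (-0.82 to 0.24) at 12 weeks. Col3a1, the type III chain, had levels of 1.87, 2.36 and 2.67 in 6-week KO livers, against 2.15, 2.30 and 2.93 in 6-week WT livers. At 12 weeks they were 2.13, 0.90 and 1.16 in KO livers, against 1.5, 1.97 and 1.99 in WT livers. Again the genotypes overlapped, and the difference was -0.16 (-0.90 to 0.58) at 6 weeks and -0.42 (-1.17 to 0.32) at 12 weeks.

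For Col1a1 the interval of KO minus WT ran from -0.92 to 0.72 at 6 weeks and from -1.02 to 0.61 at 12 weeks, so changes of that size in either direction cannot be distinguished with 3 arrays per group. The point estimates of 12 minus 6 weeks for Col1a1, Col1a2 and Col3a1 were -0.73, -0.71 and -0.90 in KO livers and -0.62, -0.55 and -0.64 in WT livers. Their adjusted p-values were 0.29, 0.109 and 0.142 in KO livers and 0.318, 0.183 and 0.26 in WT livers. In the 12-week KO group, 15 of the 25 members were highest on replicate 1 and 17 were lowest on replicate 2, and the spread of the 3 chains was wide there (SD of 0.81, 0.50 and 0.65, n = 3). Single arrays stood out elsewhere too, with 15 members lowest on replicate 1 of the 6-week KO and 14 highest on replicate 3 of the 6-week WT. Such ranks were not counted over all genes. The 2 remaining fibrillar genes tested, Col5a1 and Col11a2, differed between genotypes by -0.28 to 0.66 with adjusted p-values of 0.14 or more.

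**Figure D2:**
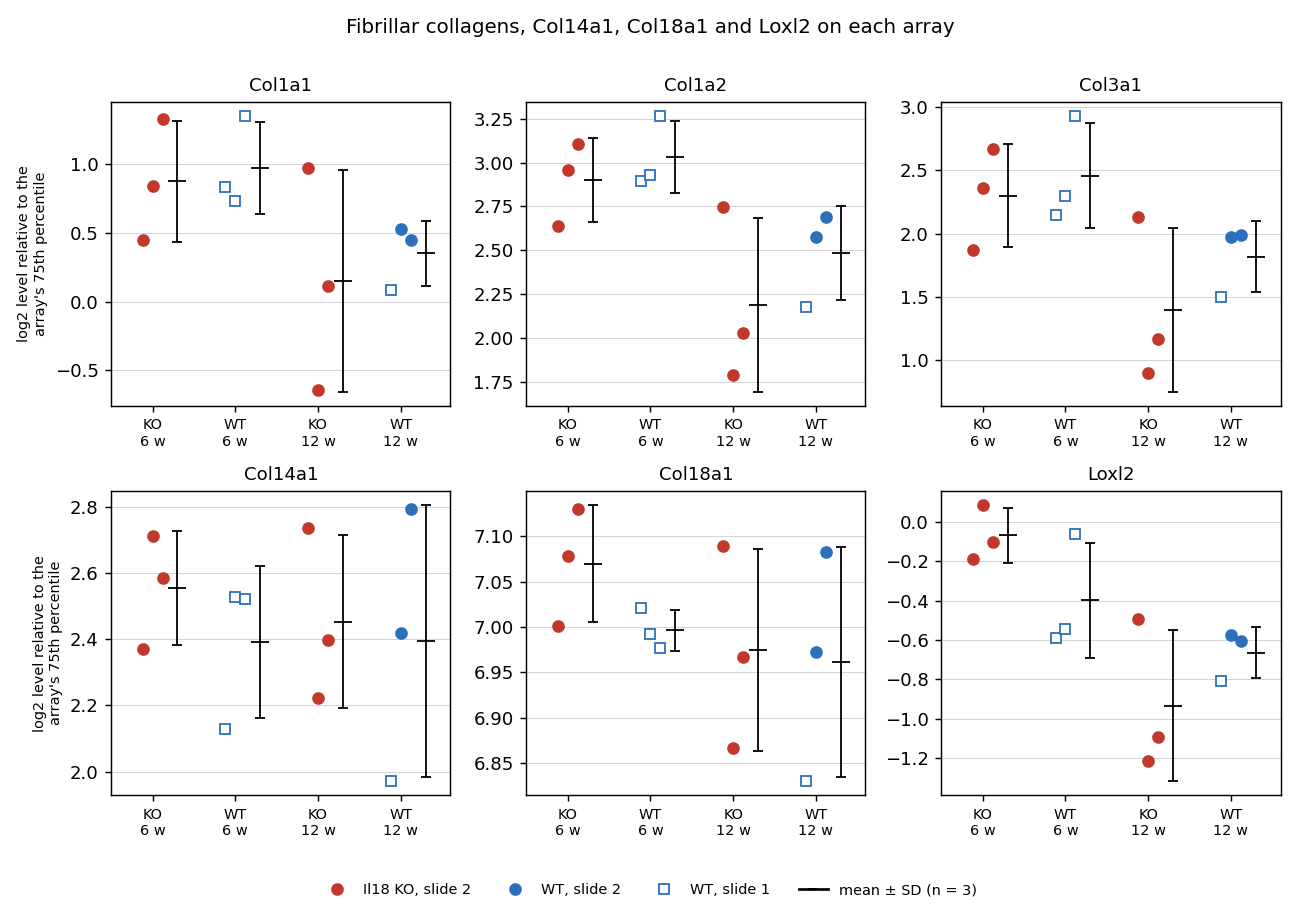
Log2 level relative to each array's 75th percentile of Col1a1, Col1a2, Col3a1, Col14a1, Col18a1 and Loxl2 on the 12 arrays, with the mean ± SD of 3 arrays. Points are filled for slide 2 and open for slide 1, and each panel has its own axis. In the 12-week KO group replicate 1 is the highest and replicate 2 the lowest in all 6 panels.

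Among the type IV chains, 1 was higher and 1 lower in 6-week KO livers, and 0 passed at 12 weeks. Col4a1, which with Col4a2 makes the trimer found in nearly all basement membranes, was 1.76-fold higher in 6-week KO livers. Col4a5, a chain of specialised basement membranes, was 1.87-fold lower in the same livers. Of the 6 genes of the class, Col4a3 was not detected and 5 were tested.

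Col4a1, measured by a probe with 10 spots per array, had levels of 1.31, 1.27 and 1.28 on the 6-week KO arrays, against 0.30, 0.54 and 0.57 on the 6-week WT arrays. At 12 weeks its levels were 0.81, 0.28 and 0.51 in KO livers, against 0.19, 0.26 and 0.69 in WT livers. The 6-week KO arrays lay above all others and close to one another, and the 12-week genotypes overlapped. The difference was 0.82 ± 0.16 (SE, adjusted p = 0.00692) at 6 weeks and 0.16 ± 0.16 (adjusted p = 0.585) at 12 weeks, and the change between the ages in that difference did not pass (-0.66 ± 0.22, adjusted p = 0.0914). In KO livers 12 minus 6 weeks was -0.75 ± 0.16 (adjusted p = 0.0214), a call lost without any 1 of 5 KO arrays: all 3 of 6 weeks and replicates 2 and 3 of 12 weeks. The 6-week genotype difference was 0.53 (adjusted p = 0.347) with the slide as a fixed block, and the average over ages was 0.49 ± 0.11 (adjusted p = 0.0156), or 0.30 (adjusted p = 0.452) with that block.

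Col4a2 had levels of 1.41, 1.48 and 1.54 in 6-week KO livers, against 0.96, 1.21 and 1.30 in 6-week WT livers. At 12 weeks they were 1.29, 0.65 and 0.94 in KO livers, against 0.64, 0.56 and 0.82 in WT livers. At 6 weeks every KO array lay above every WT array, but the difference of 0.32 ± 0.15 (SE, adjusted p = 0.156) did not pass, and at 12 weeks it was 0.29 ± 0.15 (adjusted p = 0.273). Its differences with age were -0.52 ± 0.15 (adjusted p = 0.0732) in KO and -0.49 ± 0.15 (adjusted p = 0.0776) in WT livers. The RefSeq start sites of Col4a1 and Col4a2 lie head to head on chromosome 8 of GRCm38, at 11312826 on the minus strand and 11312805 on the plus strand.

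Col4a5 had levels of -2.50, -2.07 and -2.25 on the 6-week KO arrays, against -1.41, -1.62 and -1.08 on the 6-week WT arrays. At 12 weeks its levels were -3.41, -2.95 and -2.75 in KO livers, against -2.53, -2.52 and -2.33 in WT livers. The groups did not overlap at either age, the KO arrays being lower, and within each genotype every 12-week array was below every 6-week array. KO minus WT was -0.90 ± 0.19 (SE, adjusted p = 0.00963) at 6 weeks, -0.57 ± 0.19 (adjusted p = 0.0895) at 12 weeks and -0.74 ± 0.13 (adjusted p = 0.00604) on average. From 6 to 12 weeks the change was -0.76 ± 0.19 (adjusted p = 0.0382) in KO livers and -1.09 ± 0.19 (adjusted p = 0.00774) in WT livers, and these did not differ past the threshold (0.33 ± 0.27, adjusted p = 0.479). Under a fixed slide block the 6-week difference was -1.01 (adjusted p = 0.17), the average -0.81 (adjusted p = 0.127) and the change in WT livers -1.16 (adjusted p = 0.0587). The change in KO livers was -0.76 (adjusted p = 0.0626) within slide 2 and -0.35 (adjusted p = 0.0503) after normexp background correction, and its call was lost without any 1 of 6 arrays: replicates 2 and 3 of the 6-week KO, 1 and 2 of the 12-week KO, 1 of the 6-week WT and 2 of the 12-week WT.

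Col4a6, the neighbour of Col4a5 on chromosome X, whose RefSeq start lies 1343 bases away on the other strand in GRCm38, differed by -0.38 ± 0.16 (adjusted p = 0.113) at 6 weeks and -0.14 ± 0.16 (adjusted p = 0.629) at 12 weeks. Col4a4, a chain known from the kidney filter, differed by -0.20 and -0.22 with 1 probe and by 0.21 and -0.23 with the other, all with adjusted p-values of 0.32 or more. The summed linear signal of 9 sinusoidal and vascular endothelial markers ran from 106 to 108 times the 75th percentile in 6-week KO livers. It ran from 94.2 to 109 in 6-week WT livers. All 9 were well above background on every array, and 1, the VEGF receptor Kdr, was lower in 6-week KO livers (-0.54 ± 0.14, adjusted p = 0.027, or -0.01 and adjusted p = 0.978 under a fixed slide block). The part of endothelial cells in the type IV values was not tested.

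**Figure D3:**
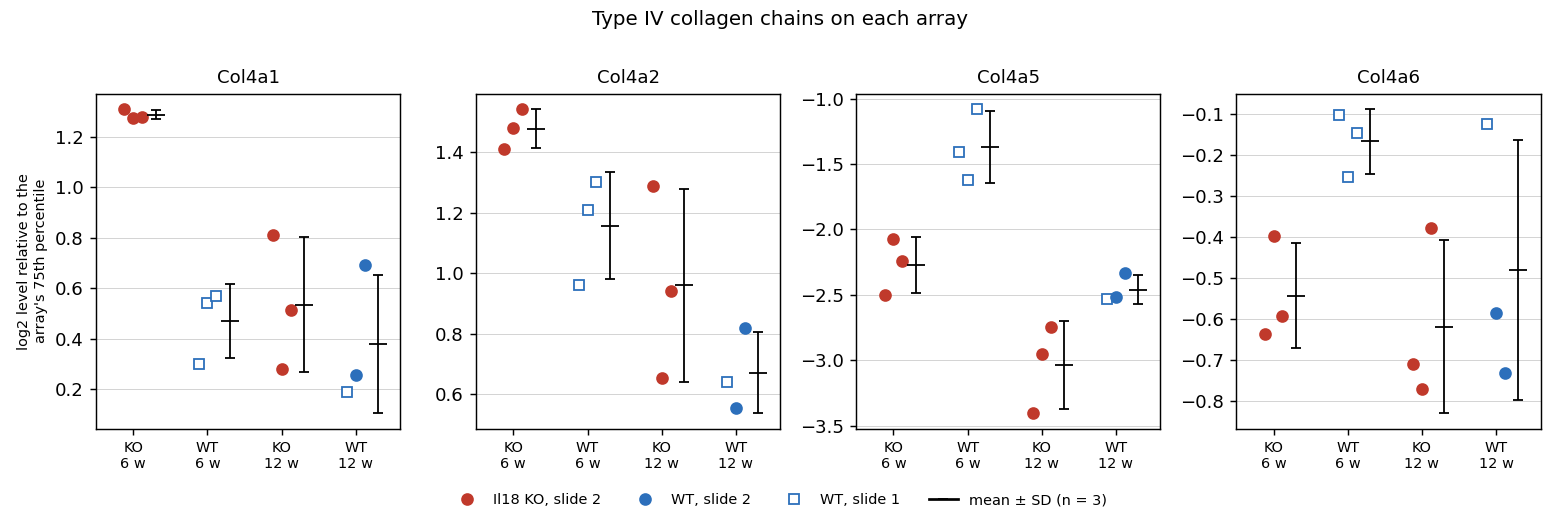
Log2 level relative to each array's 75th percentile of Col4a1, Col4a2, Col4a5 and Col4a6 on the 12 arrays, with the mean ± SD of 3 arrays. Points are filled for slide 2 and open for slide 1, and each panel has its own axis. Col4a1 is highest on the 3 6-week KO arrays, at 1.27 to 1.31, while Col4a5 is highest on the 3 6-week WT arrays, at -1.62 to -1.08.

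Of the collagens associated with fibrils without forming them (FACIT), 5 of 9 genes were tested. Col9a2, a type IX chain known from cartilage, was 1.74-fold lower in 6-week KO livers. Its levels were -2.33, -1.89 and -1.69 on the 6-week KO arrays, against -1.20, -1.08 and -1.25 on the 6-week WT arrays. At 12 weeks they were -2.12, -2.04 and -1.73 in KO livers, against -1.44, -2.04 and -2.36 in WT livers. The 6-week WT arrays were the highest, and replicate 1 of the 12-week WT, which shared their slide, came next. KO minus WT was -0.80 ± 0.23 (SE, adjusted p = 0.0334) at 6 weeks and -0.01 ± 0.23 (adjusted p = 0.975) at 12 weeks. Under a fixed slide block the 6-week difference was -0.04 (adjusted p = 0.965), the largest shift under that block among the 6 members called at 6 weeks. The 6-week call was also lost without any 1 of 5 of the 6 arrays it compares, the exception being replicate 3 of the KO.

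Col14a1, which coats type I fibrils, had levels of 2.37, 2.71 and 2.58 in 6-week KO livers, against 2.13, 2.53 and 2.52 in 6-week WT livers. At 12 weeks they were 2.74, 2.22 and 2.40 in KO livers, against 1.97, 2.42 and 2.79 in WT livers. Genotypes overlapped at both ages, and the differences were 0.16 (95% interval -0.31 to 0.63) at 6 weeks and 0.06 (-0.41 to 0.53) at 12 weeks. Col9a1, Col16a1 and Col20a1 differed between genotypes by -0.32 to 0.28 with adjusted p-values of 0.231 or more.

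Col18a1, the source of the fragment endostatin and a collagen that hepatocytes themselves make, had the smallest standard error of the 25 members. Its levels were 7.0, 7.08 and 7.13 in 6-week KO livers, against 7.02, 6.99 and 6.98 in 6-week WT livers. In the older mice they were 7.09, 6.87 and 6.97 in KO livers, against 6.83, 6.97 and 7.08 in WT livers. The genotype difference was 0.07 (95% interval -0.12 to 0.26) at 6 weeks and 0.01 (-0.18 to 0.20) at 12 weeks, and its other probe gave 0.19 ± 0.10 (adjusted p = 0.203) and 0.18 ± 0.10 (adjusted p = 0.288). These intervals exclude a change of the size seen at 6 weeks for Col5a3 or Col4a1. The type VI chains Col6a1 and Col6a2, which form beaded filaments, gave -0.12 and -0.41 at 6 weeks and -0.33 and -0.35 at 12 weeks, with adjusted p-values of 0.191 or more. Col8a2, a short-chain collagen of endothelial matrices, gave -0.23 and -0.14 (adjusted p = 0.472 and 0.743).

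The 20 members not tested were dim. Of these, 14 were not well above background on any array: Lox, the fibrillar chains Col2a1, Col11a1 and Col24a1, Col4a3, the type VI chains Col6a4 and Col6a6, the FACIT chains Col9a3, Col19a1 and Col22a1, the short-chain collagens Col8a1 and Col10a1, the transmembrane Col17a1, and Col28a1. The other 6, Col5a2, Col12a1, Col13a1, Col15a1, Col23a1 and Col25a1, were well above background on at least 1 and at most 6 of the 12 arrays. None of the 4 transmembrane collagens was tested.

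**Figure D4:**
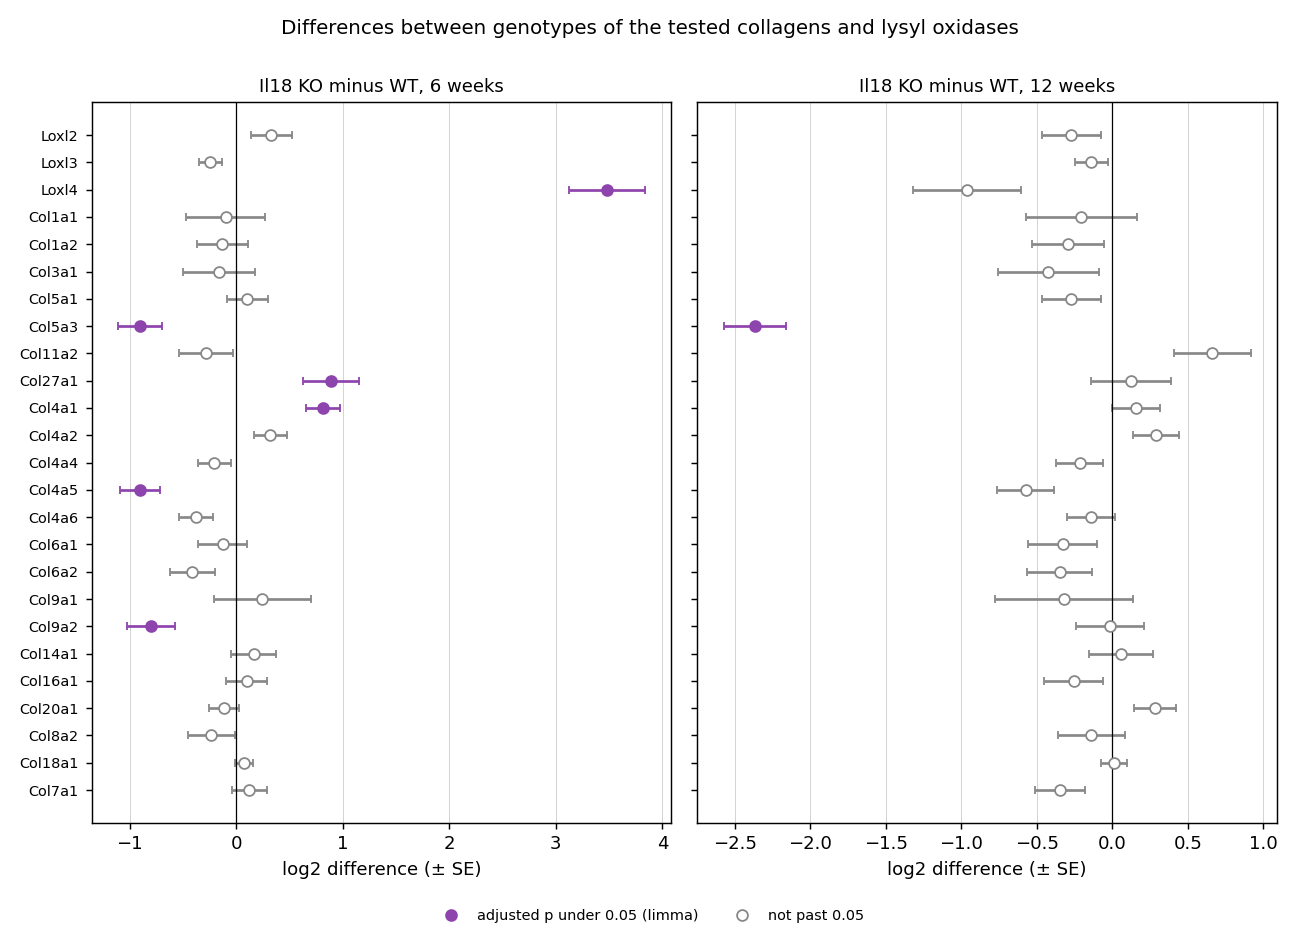
Log2 difference of KO minus WT at 6 weeks (left) and 12 weeks (right) for the 25 tested members, with the standard error of the limma fit. Filled points passed an adjusted p of 0.05. At 6 weeks 3 members lie above and 3 below 0 past the threshold, with Loxl4 at 3.48, and at 12 weeks Col5a3 passes alone at -2.37.

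Over the 25 tested members the median log2 difference of KO minus WT was -0.114 at 6 weeks and -0.215 at 12 weeks, beside 0.017 and 0.014 over all genes tested. At 12 weeks 18 members had a negative estimate and 7 a positive one, and 4 had an unadjusted p under 0.05 (25% of all genes did). From 6 to 12 weeks, 21 of the 25 estimates were negative in KO livers (median -0.16, beside -0.022 over all genes) and 17 in WT livers (median -0.091, beside -0.025). The members passing in KO livers were Loxl4, Loxl2, Col4a5 and Col4a1. The 2 in WT livers were Col5a3, which rose, and Col4a5, which fell. Within slide 2, which held all KO arrays, 3 of the 4 passed in KO livers, Col4a5 being the exception. Since the 6-week KO arrays enter both the genotype comparison at 6 weeks and the age comparison in KO livers, the high 6-week values of Loxl4 and Col4a1 appear in both.

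**Figure D5:**
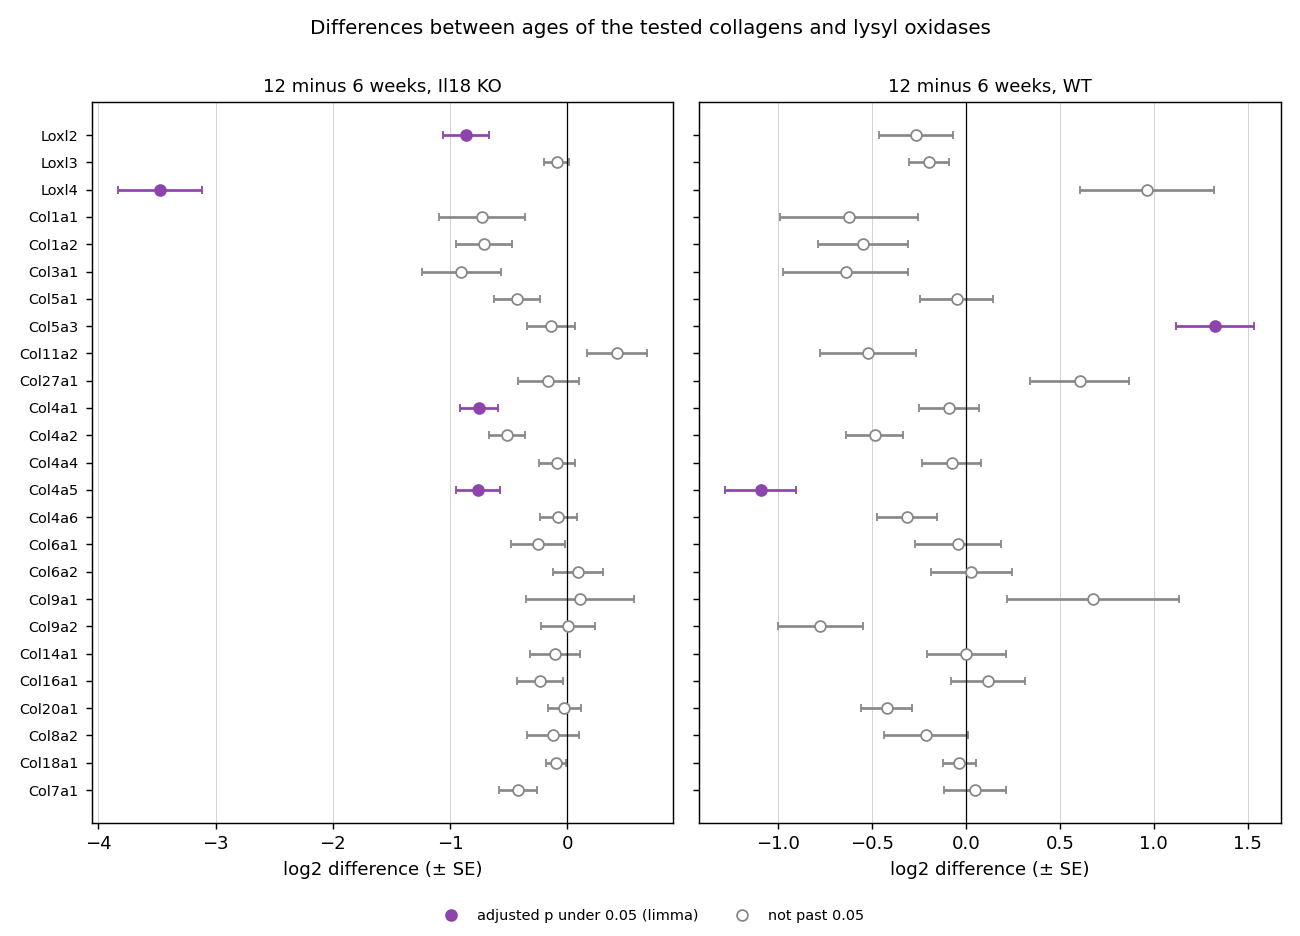
Log2 difference of 12 minus 6 weeks in KO livers (left) and WT livers (right) for the 25 tested members, with the standard error of the limma fit. Filled points passed an adjusted p of 0.05. In KO livers the 4 that pass are all negative, and in WT livers Col5a3 passes at 1.33 and Col4a5 at -1.09.

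The calls in the lists of related genes stand beside 11.7% of all genes higher and 9.35% lower in KO livers at 6 weeks, and 5.65% and 2.56% at 12 weeks. Of 24 tested processing enzymes and chaperones, 6 were higher and 2 lower in 6-week KO livers, and 1 was higher and 1 lower at 12 weeks. Their median difference was 0.113 at 6 weeks and -0.035 at 12 weeks. None of the 8 called at 6 weeks passed with the slide as a fixed block, where 588 of all 22128 genes passed. Colgalt2, a galactosyltransferase that glycosylates collagen hydroxylysine, was higher at both ages, by at least 3.12-fold at 6 weeks, when it was well above background on 0 WT arrays (adjusted p = 0.000311), and by 1.55 ± 0.20 on the log2 scale at 12 weeks (SE, adjusted p = 0.00327). At 12 weeks it also passed within slide 2 (1.44, adjusted p = 0.0252), while at 6 weeks it missed the threshold with the slide as a fixed block (adjusted p = 0.058). Ppib, the cyclophilin that speeds folding of the triple helix, rose by 0.51 ± 0.09 (adjusted p = 0.00495) and Bmp1, the proteinase that trims procollagen and activates Lox, by 0.36 ± 0.09 (adjusted p = 0.0221) at 6 weeks. P4ha3, a prolyl hydroxylase subunit, fell by 0.65 ± 0.17 (adjusted p = 0.0252). At 12 weeks Pcolce2, an enhancer of procollagen trimming, was lower at -0.69 ± 0.17 (adjusted p = 0.0339). Under a fixed slide block, Ppib, Bmp1, P4ha3 and Pcolce2 did not pass: Ppib gave 0.43 (adjusted p = 0.207), Bmp1 0.23 (adjusted p = 0.488), P4ha3 -0.01 (adjusted p = 0.985) and Pcolce2 -0.71 (adjusted p = 0.066). Fkbp14, a folding enzyme of the endoplasmic reticulum chosen for mention after its values were seen, had opposite signs, at 0.49 ± 0.14 (adjusted p = 0.0332) without the block and -0.10 (adjusted p = 0.721) with it.

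Of 20 tested basement membrane partners of type IV collagen, 3 were higher and 0 lower in 6-week KO livers, a share near that of all genes. Their median difference was 0.058 at 6 weeks and -0.038 at 12 weeks. Lama3, a laminin chain, was higher by 1.14 ± 0.19 on the log2 scale (SE, adjusted p = 0.00368), or 1.90 (adjusted p = 0.00373) with the slide as a fixed block. Nid2, a nidogen that links laminin to type IV collagen, was higher at 6 weeks by 1.06 ± 0.12 (adjusted p = 0.000538) and lower at 12 weeks at -0.75 ± 0.12 (adjusted p = 0.00792). Its genotype difference changed by -1.81 ± 0.18 between the ages (adjusted p = 0.000392), and by -1.72 (adjusted p = 0.00404) with that block, under which the 6-week difference alone was 0.93 (adjusted p = 0.0671). Agrn, a heparan sulphate proteoglycan, gave 0.37 ± 0.11 (adjusted p = 0.0364) at 6 weeks, and 0.02 (adjusted p = 0.966) with that block. At 12 weeks 1 was higher and 2 were lower in KO livers. Smoc1, a calcium-binding matrix protein, gave 0.47 ± 0.11 (adjusted p = 0.0342), or 0.37 (adjusted p = 0.0611) within slide 2. Lama5, the laminin alpha 5 chain, was -0.42 ± 0.11 (adjusted p = 0.0451), or -0.35 (adjusted p = 0.113) within slide 2.

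Of 22 tested interstitial matrix partners, 0 were higher and 1 was lower at 6 weeks, and 0 passed at 12 weeks. The one was Bgn, the proteoglycan biglycan that binds type I collagen, at -0.61 ± 0.19 (SE, adjusted p = 0.0414), or -0.18 (adjusted p = 0.812) with the slide as a fixed block. Of 14 breakdown enzymes and inhibitors, only Timp3, a matrix-bound inhibitor of metalloproteinases, passed between genotypes, at -0.56 ± 0.13 (adjusted p = 0.0142) at 6 weeks. With the slide as a fixed block it narrowly missed the threshold (-0.90, adjusted p = 0.05), and as a random block it passed (-0.69, adjusted p = 0.0368). In KO livers it rose with age by 0.50 ± 0.13 (adjusted p = 0.043), while Mmp14, a membrane-bound collagenase, fell by 0.66 ± 0.12 (adjusted p = 0.0105). Within slide 2 Mmp14 still passed (adjusted p = 0.0261) and Timp3 did not (adjusted p = 0.0552). In WT livers the change of Timp3 with age was -0.48 ± 0.13 (adjusted p = 0.0437), or -0.71 (adjusted p = 0.0447) with the slide as a fixed block. Its genotype difference changed between the ages by 0.98 ± 0.18 (adjusted p = 0.00817), or 1.21 (adjusted p = 0.00883) with that block.

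Among 24 tested genes of TGF-beta and profibrotic signalling, 2 were higher and 2 lower in 6-week KO livers, and 1 was higher and 1 lower at 12 weeks. Skil, a repressor of SMAD transcription, was higher by 1.46 ± 0.10 on the log2 scale (SE, adjusted p = 2.83e-05) at 6 weeks, or 1.56 (adjusted p = 0.00452) with the slide as a fixed block. Pdgfc, a growth factor for stellate cells and fibroblasts, was higher at 6 weeks by 1.23 ± 0.12 (adjusted p = 0.000177) and lower at 12 weeks at -0.93 ± 0.12 (adjusted p = 0.00291). With the block the 6-week value was 0.97 (adjusted p = 0.0369), and within slide 2 the 12-week value was -1.02 (adjusted p = 0.00526). Of 7 collagen receptors, Itga10, an integrin chain, was higher at 6 weeks (0.59 ± 0.16, adjusted p = 0.0291) and the inhibitory receptor Lair1 lower at 12 weeks (-0.38 ± 0.10, adjusted p = 0.0438). Itga10 gave 0.22 (adjusted p = 0.722) with the block, and Lair1 -0.44 (adjusted p = 0.0877) within slide 2.

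Markers of the cells that make most fibrillar collagen in liver overlapped between the genotypes in summed signal. Of 18 hepatic stellate cell and fibroblast markers, 16 were tested, with Gfap and Gli1 the exceptions, and all 16 were well above background on every array. Their summed linear signal ran from 74.2 to 93.1 times the 75th percentile in 6-week KO livers, against 78.8 to 102 in 6-week WT livers. At 12 weeks it ran from 63.9 to 93.2 in KO livers, against 74.2 to 111 in WT livers, so the ranges overlapped at both ages. At 6 weeks 1 was higher, Ngfr at 0.85 ± 0.16 (SE, adjusted p = 0.00563), and 1 lower, Lrat at -0.50 ± 0.14 (adjusted p = 0.0344). Under a fixed slide block these were 0.76 (adjusted p = 0.213) and -0.60 (adjusted p = 0.267). At 12 weeks 0 of the 16 passed, with a median difference of -0.244.

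Markers of other cell types differed between the groups in part. The calls stand beside 11.7% of all genes higher and 9.35% lower in KO livers at 6 weeks, and 5.65% and 2.56% at 12 weeks. In the summed signals the brightest markers weigh most. Of 6 tested cholangiocyte markers 2 were higher in 6-week KO livers, among them Sox9 at 1.81 ± 0.28 (SE, adjusted p = 0.00223), or 1.44 (adjusted p = 0.169) under a fixed slide block. The median of the 6 was -0.143, and their summed signal overlapped at 6 weeks, at 2.87 to 3.49 in KO livers and 2.95 to 3.15 in WT livers. At 12 weeks 2 were lower, Spp1 at -0.52 ± 0.13 (adjusted p = 0.0339) and Cldn7 at -0.32 ± 0.08 (adjusted p = 0.0384). Within slide 2 Spp1 passed (-0.65, adjusted p = 0.0377) and Cldn7 did not (-0.38, adjusted p = 0.0517). The summed signal of the 6 at 12 weeks was 2.47 to 2.77 in KO livers and 2.92 to 3.67 in WT livers, with no overlap. At that age 4 vascular smooth muscle markers summed to 6.24 to 8.73 in KO livers and 9.28 to 9.91 in WT livers, also without overlap, although 0 of the 4 passed. The 6 Kupffer cell markers summed to 66.3 to 112 in 12-week KO livers and 103 to 136 in WT livers, and 1 of the 6 was lower, Timd4 at -0.81 ± 0.22 (adjusted p = 0.05), a call lost with the slide as a fixed block (adjusted p = 0.0863), as a random block (0.0557) and within slide 2 (0.137). Of 3 adipocyte markers tested, 1 was well above background on all 6-week WT arrays. This was Car3, also the 1 called at 6 weeks (0.40 ± 0.12, adjusted p = 0.036), a call lost under a fixed slide block (adjusted p = 0.278). Mean levels of Car3 at 6 weeks were 8.98 in KO and 8.59 in WT livers, above the 8.16 and 7.86 of the hepatocyte marker Apoa1. A Car3 value in whole liver therefore cannot be assigned to adipocytes. Averaged over both ages, 2 of the 3 were higher in KO livers, Car3 and Cfd, beside 12.7% of all genes. Cfd gave 2.03 ± 0.61 (adjusted p = 0.0398), or 2.42 (adjusted p = 0.29) under a fixed slide block. At 12 weeks 0 of the 3 passed, with a median difference of 0.909. Their summed signal was 467 to 548 in 6-week KO livers and 358 to 419 in 6-week WT livers, without overlap. It overlapped at 12 weeks. Of 3 mesothelial and 3 pancreatic acinar markers tested, 0 passed between the genotypes at either age. The acinar markers nevertheless summed to 10.8 to 11.6 in 6-week KO livers and 11.9 to 13.9 in 6-week WT livers, without overlap. At 12 weeks their sums overlapped, at 10.5 to 11.3 in KO livers and 7.59 to 11.2 in WT livers. The mesothelial sums overlapped at both ages. The part of these cell types in the collagen and lysyl oxidase values was not tested.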

How the data were processed

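RNA of 12 whole livers was measured on 1-colour mouse arrays. Per the file headers, the authors quantified the scans with Agilent Feature Extraction 10.7.3.1 and deposited a processed intensity, background-subtracted and detrended, not scaled between arrays. The deposited value table held the same intensity rounded (largest difference 0.497%). Members were matched on the files' gene names, and mm9 positions are the files'. Names of other probes were taken from RefSeq by accession (26582 probes), current symbol (2602) or synonym (492), and otherwise kept as given (26005). Control and outlier spots were left out, spots of a probe averaged, and log2 intensity taken minus the array's 75th percentile. Each gene was represented by its brightest probe among those flagged well above background throughout some group. The 22128 such genes were fitted together in R 4.3.3 by limma 3.58.1 (linear model of 4 group means, moderated by eBayes, 8 residual degrees of freedom). Adjusted p-values are Benjamini-Hochberg over all genes, with a threshold of 0.05. Errors are SE of the fit unless given as SD, and the number of arrays limits the precision. On simulated data for the 6-week comparison (22122 genes), 71% of log2 changes of 1 and 93% of changes of 2 were recovered, with 8 false calls. The simulation had independent noise, no slide effect and far fewer changed genes than were called in the data. Its rates therefore do not describe the real 6-week comparison, where slide and genotype cannot be told apart. Where a group was not above background, a fold is given as "at least". Promoter windows are RefSeq's on GRCm38, 250 bases before the start.

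Members that passed in any comparison or were among the 5 with the highest mean signal are given on every array, and the others by range. Up to 4 genes with the smallest p per pathway list and comparison, and marker genes, may be named. The members, lists and rules were chosen with earlier results of these data known. Alternatives were another background correction, quantile scaling, the deposited value table, no filter on dim probes, other rules for several probes, the slide as a fixed or random block or within 1 slide, the replicate number as a block, and leaving out each array. Which exon or UTR a probe matches was not analysed here. Single values of some listed genes are not reported here.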

Additional observations from a re-analysis of the deposited data

Results flagged for a closer look

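The genotype difference of Loxl4 differed between the ages by a test of the difference itself: 12 weeks minus 6 weeks was -4.44 (adjusted p = 0.000926), with KO above WT at 6 weeks. At 12 weeks the KO mean lay below that of WT, but neither Loxl4 probe passed at that age. Tested separately, the probes gave -0.96 (adjusted p = 0.133) and -0.54 (adjusted p = 0.574). The genotype difference of Col5a3 also differed between the ages, by -1.46 (adjusted p = 0.0119), with KO below WT at both ages. With the slide as a fixed block the changes between the ages were -4.32 (adjusted p = 0.00781) for Loxl4 and -1.21 (adjusted p = 0.0702) for Col5a3.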

How the results depend on the processing

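Leaving out 1 array at a time gave 3 to 8 members called between genotypes at 6 weeks (3 without replicate 3 of the 6-week WT or replicate 1 of the 6-week KO), 1 to 2 at 12 weeks (2 without replicate 1 of the 6-week KO) and 4 to 5 on average. With age it gave 1 to 6 in KO livers (1 or 2 without any 6-week KO array or replicate 2 or 3 of the 12-week KO), 2 to 5 in WT livers (5 without replicate 1 of the 12-week WT), and 2 to 3 for the difference between ages. Calls over all genes moved too, from 2549 to 6204 at 6 weeks. Il18 stayed at -2.6 to -2.43, -2.41 to -2.24 and -2.48 to -2.38. With the slide as a fixed block, 1 member was called at 6 weeks, 1 on average, 0 with age in WT livers and 1 for the difference between ages. Over all genes that block left 588 calls at 6 weeks, against 4661 without it. As a random block it left 1 at 6 weeks and 2 on average, and within slide 1, with 1 array of 12 weeks, 0 with age in WT livers. With every probe tested separately and the fixed block, an alternative chosen after seeing the data, 2 were called at 6 weeks, 1 on average and 1 with age in WT livers. Normexp correction gave 4 with age in WT livers, and no filter on dim probes 1 with age in KO livers.

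For the other genes of the pathway lists together, main counts were 18 at 6 weeks, 8 at 12 weeks, 13 on average, 13 with age in KO livers, 9 in WT livers and 10 for the difference between ages. Leaving out 1 array gave 8 to 22, 4 to 10, 5 to 17, 6 to 19, 3 to 16 and 5 to 17, and every array but replicate 3 of the 12-week WT moved at least 1 of these counts by over 1.5 times. No filter gave 11, 3, 7, 7, 3 and 5. The fixed slide block gave 5 at 6 weeks, 4 on average and 3 with age in WT livers, and the random block 7, 3 and 5. Within slide 2 there were 4 at 12 weeks, and within slide 1 there were 0 with age in WT livers. Normexp gave 13 at 12 weeks and 14 with age in WT livers, and every probe separately 20 on average. Every probe with the fixed block gave 6 at 6 weeks, 6 on average, 5 with age in WT livers and 21 in KO livers. The cause of these shifts was not tested.

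Of the values of the members called under all these settings, 354 kept their side of the threshold, 71 lost it and 0 changed sign. Arrays that share a replicate number deviated together at correlations from -0.086 to 0.18, the highest for replicate 1 of the 6-week and 12-week WT, both on slide 1. Arrays of different numbers were not set beside them, so these values cannot show whether the numbers pair the samples. With a replicate block, 5 members were called at 6 weeks, without Col9a2 (adjusted p = 0.062), and 3 with age in KO livers, without Loxl2 (adjusted p = 0.0546). Dim probes limit Loxl4 in 6-week WT livers, where its first probe was well above background on 1 array.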
